A study of Mus musculus with 12 samples.

Results

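The D-type cyclin genes Ccnd1, Ccnd2 and Ccnd3, the CDK inhibitor genes Cdkn1a, Cdkn1b, Cdkn1c and Cdkn2c, and the MYC network genes Myc, Max and Mxd4 were followed across 4 groups of mouse skeletal muscle. These 10 genes were chosen by name, with earlier results of these data known. Every probe set that the platform annotation gives to them was taken: 25 of the 45101 probe sets, standing for 10 of the 18193 genes with a probe set of their own. For each gene the brightest probe set, by its mean on all 12 arrays, was the main one, and all 10 main probe sets were bright enough to enter the test. The groups were knockout of Stat5a and Stat5b with growth hormone (KO+GH), wild type with growth hormone (WT+GH), knockout without it (KO) and wild type without it (WT), with 3 mice and 3 arrays in each. The labels give no dose, duration, strain, age or sex, and no promoter for the deletion. By a treatment label the genes were deleted in blood cells, whereas the series title speaks of skeletal muscle. The values are MAS5 signals, a linear brightness per probe set that the authors had scaled to the same mean on every array, so levels are compared between arrays and not between genes. Because whole tissue was measured, fewer cells of a type and less RNA per cell cannot be told apart.

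D-type cyclins join the kinases CDK4 and CDK6, and the complex phosphorylates the retinoblastoma protein so that a cell can leave the resting state and copy its DNA. The inhibitors of the INK4 family, such as the product of Cdkn2c, bind CDK4 and CDK6 themselves, while those of the CIP/KIP family, made by Cdkn1a, Cdkn1b and Cdkn1c, act on complexes of cyclin and kinase. MYC pairs with MAX to bind E-box DNA and raise genes of growth, and MXD4 competes for MAX and represses. Muscle fibres are postmitotic, so whole muscle holds these RNAs in nuclei that no longer divide as well as in satellite, endothelial, connective tissue and blood cells. In blood cells cyclin D genes and Myc are known targets of STAT5, a factor that the growth hormone receptor activates.

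The deleted genes were low in knockout muscle. Stat5b had a mean signal of 362 ± 25.2 in KO+GH and 1794 ± 101 in WT+GH, and 428 ± 63.7 in KO and 2820.3 ± 162.5 in WT (SD, n = 3 each), and Stat5a was at 41.5% to 43.3% of wild type by the fitted fold change. Fast fibre and general muscle markers lay at a median percentile of 99.97 among all genes. The 5 lymphocyte markers on the array lay at a median percentile of 21, and 0 of them were bright enough to test. Of these, Cd3d and Cd2 had mean signals under 25. The arrays with GH differed from those without it in technical measures: spiked poly-A transcripts gave a mean signal (geometric) of 487 to 533 on arrays with GH and 151 to 173 on those without. The ratio of 3′ to 5′ actin signal, which reflects RNA integrity, lay at 0.887 to 1.01 with GH, against 0.805 to 0.864 without. The labels name no batch. Animal numbers in the sample titles carry the letter M on every array with GH and on none without. GH treatment cannot be told apart from whatever set these control signals and titles apart. Over the 12648 genes tested, 19.1% passed limma's threshold for GH in WT (927 higher, 1489 lower) and 24.3% for GH in KO (1130 higher, 1949 lower), while 1.45% passed for KO against WT without GH, 4.53% for KO+GH against WT+GH and 0.933% for the interaction of genotype and GH. With each array centred on its median over all probe sets, the median log2 fold change with GH over all genes was -0.24 in both genotypes instead of -0.06, and 11.1% of the calls in WT and 13.3% of those in KO were higher, against 38.4% and 36.7%. Centred on the median of the genes tested, 50.3% and 49.9% were higher.

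With GH, Cdkn1a and Myc rose and Ccnd1, Cdkn2c and Ccnd2 fell in both genotypes. All 6 arrays with GH lay above all 6 without for Cdkn1a and Myc, as for 5.23% of all genes, and below them for Ccnd1, Cdkn2c and Mxd4, as for 10.3% of all genes. Mxd4 did not pass the test, and Ccnd2 passed with a small overlap between arrays of different genotype. In KO muscle 2 of the 10 genes rose and 3 fell, where 8.93% and 15.4% of all genes did. In WT muscle 2 rose and 4 fell, the further one being Ccnd3, where 7.33% and 11.8% of all genes did. An unadjusted p under 0.05 was reached by 6 of the 10 in KO (36.6% of all genes) and by 7 in WT (32.6%). The groups did not overlap for 2 higher and 4 lower genes in KO (16.5% and 27.9% of all genes) and for 2 higher and 5 lower genes in WT (13.3% and 21% of all genes). The median log2 fold change of the 10 genes was -0.21 in KO and -0.03 in WT, beside -0.06 in both over all genes. Because the 10 genes were chosen with earlier results known, the shares over all genes are a scale and not a test.

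**Figure D1:**
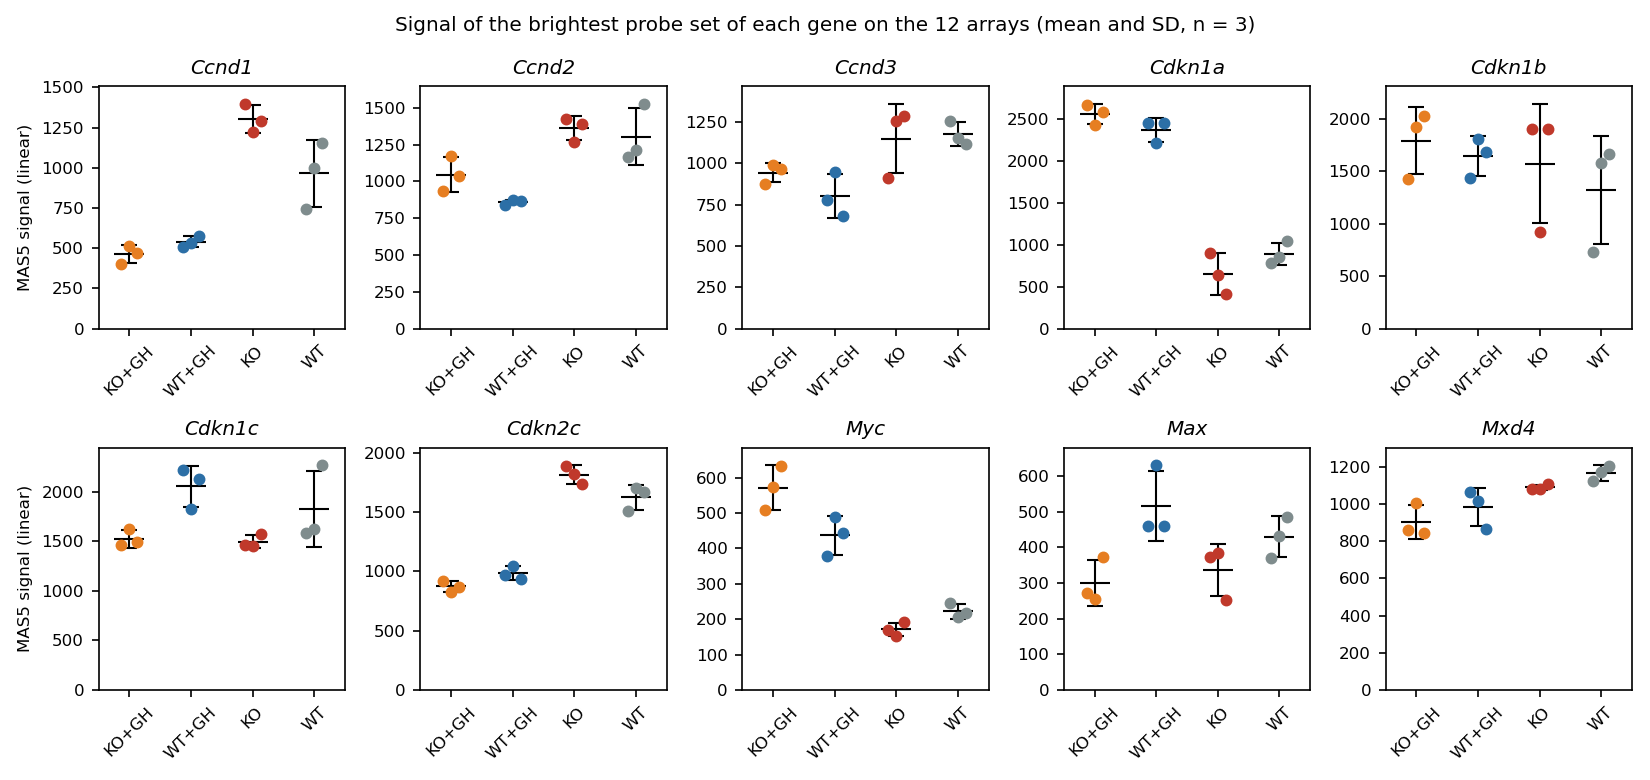
MAS5 signal (linear, vertical axes from 0) of the main probe set of each of the 10 genes, with a point for each array, a bar for the mean and whiskers for the SD in KO+GH, WT+GH, KO and WT (n = 3 each). Ccnd1 and Cdkn2c lie lower and Cdkn1a and Myc lie higher on all 6 arrays with GH than on any of the 6 without.

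Ccnd1, the cyclin D gene that mitogens raise in many cell types, had the widest GH difference of the cyclins. Its main probe set (1448698_at) read 401, 514.5 and 469 in KO+GH and 508, 535 and 578 in WT+GH, against 1397, 1221 and 1289 in KO and 745, 996 and 1156 in WT. All 6 arrays with GH were below all 6 without, and within the arrays without GH those of KO were all above those of WT. Ccnd1 fell with GH by 1.45 ± 0.14 on the log2 scale in KO, which is 2.74-fold lower (limma adjusted p = 4.25e-06), and by 0.79 ± 0.14 in WT, or 1.73-fold lower (adjusted p = 0.00121). Its other probe sets fell too, with log2 fold changes of -1.13 and -1.74 in KO and -0.70 and -1.56 in WT.

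Ccnd2, the cyclin D gene that is a known STAT5 target in lymphoid cells, fell less. It read 933, 1171 and 1035 in KO+GH and 842, 871 and 867 in WT+GH, against 1424, 1269 and 1392 in KO and 1167, 1215.5 and 1526 in WT (1434745_at). The highest KO+GH array stood just above the lowest WT array, and otherwise the arrays with GH were lower. Ccnd2 fell with GH by 0.58 ± 0.11 in WT (adjusted p = 0.00214) and by 0.38 ± 0.11 in KO (adjusted p = 0.0217). Of its 6 other probe sets, the 3 with a mean log2 value between 8.46 and 10.1 that were named _at, _a_at or _s_at fell in both genotypes, by 0.61 to 0.89 in WT and by 0.72 to 0.90 in KO. The _x_at probe set, a type that can share sequence with other genes, had log2 fold changes of -0.26 in WT and -0.30 in KO and passed in neither. The remaining pair was dim, with a mean log2 value of 5.69 and 6.32, and gave -0.997 and -0.050 in KO and -0.027 and -1.04 in WT, of which the last passed (adjusted p = 0.0498). The call in KO was lost without KO 1, KO 3, KO+GH 1 or KO+GH 3, with adjusted p up to 0.108, and was 0.0529 when arrays were centred on the median of the genes tested.

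Ccnd3, the D-type cyclin that is known to accumulate as myoblasts differentiate, had 879, 993 and 965 in KO+GH and 778, 946 and 683 in WT+GH, against 910.1, 1258 and 1286 in KO and 1259.7, 1156 and 1117 in WT (1415907_at). The WT groups did not overlap, whereas KO 1 lay within the range of the KO+GH arrays. Ccnd3 fell with GH by 0.55 ± 0.14 in WT (adjusted p = 0.0109), and in KO its log2 fold change was -0.26 ± 0.14 (adjusted p = 0.175). The KO value passed without KO 1 (-0.42, adjusted p = 0.0286) and with arrays centred on their median (-0.44, adjusted p = 0.0112). The other probe sets, both dim, did not follow: 1438805_at rose with GH in KO by 1.43 ± 0.29 (adjusted p = 0.00392) with a mean signal of 117 in KO+GH and 29.4 in KO. The mean of all Ccnd3 probe sets therefore gave -0.02 in WT (adjusted p = 0.948) and 0.71 in KO (adjusted p = 0.0151), the opposite direction to the main probe set in KO. In WT the call was also lost without WT+GH 3 (adjusted p = 0.0585).

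Cdkn1a encodes p21, the CIP/KIP inhibitor that p53 raises after DNA damage and that also rises when myoblasts leave the cell cycle. It read 2660.3, 2420.2 and 2580.5 in KO+GH and 2450.1, 2206 and 2451 in WT+GH, against 906, 637 and 409.5 in KO and 776, 856 and 1038 in WT (1424638_at). The lowest array with GH was above the highest without, and the arrays with GH lay closer together than the KO arrays did. Cdkn1a rose with GH by 1.999 ± 0.20 on the log2 scale in KO, or 3.998-fold (adjusted p = 7.19e-06), and by 1.40 ± 0.20 in WT, or 2.63-fold (adjusted p = 0.000235). The other probe set rose by 1.53 ± 0.12 in KO and 1.71 ± 0.12 in WT, so which genotype had the larger rise differed between the probe sets.

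The start regions of Cdkn1a and of Cdkn2c are shown because these genes moved in opposite directions with GH and have RefSeq promoter windows here. They are the 250 bases before a RefSeq transcript start, build GRCm38.p6, 5′ to 3′ on the gene's own strand, with each motif found in capitals. Cdkn1a has 2 annotated starts, and the windows are chr17:29090729-29090978 and chr17:29093519-29093768 on the plus strand. Cdkn2c also has 2 starts, and the window of the upstream one, chr4:109666757-109667006 on the minus strand, is shown.
Cdkn1a, upstream start: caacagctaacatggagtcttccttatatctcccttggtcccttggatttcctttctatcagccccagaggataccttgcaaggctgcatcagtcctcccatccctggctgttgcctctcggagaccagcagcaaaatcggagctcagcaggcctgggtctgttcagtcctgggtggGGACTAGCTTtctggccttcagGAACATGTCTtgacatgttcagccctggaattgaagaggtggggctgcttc
Cdkn1a, downstream start: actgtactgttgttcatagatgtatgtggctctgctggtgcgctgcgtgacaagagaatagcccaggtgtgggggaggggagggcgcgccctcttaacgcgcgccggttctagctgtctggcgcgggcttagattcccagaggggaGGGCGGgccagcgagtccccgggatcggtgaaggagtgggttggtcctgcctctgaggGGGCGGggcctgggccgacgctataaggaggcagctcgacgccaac
Cdkn2c, upstream start: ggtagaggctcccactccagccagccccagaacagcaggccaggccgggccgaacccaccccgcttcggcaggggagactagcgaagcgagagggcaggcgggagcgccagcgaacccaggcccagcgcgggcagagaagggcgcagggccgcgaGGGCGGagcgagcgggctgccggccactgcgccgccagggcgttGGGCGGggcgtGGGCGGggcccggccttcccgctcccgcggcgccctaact
Both strands were searched for the STAT motif TTCNNNGAA, the E-box CACGTG, the FOXO motif TGTTTAC, the GC box GGGCGG, the CCAAT box CCAAT, the E2F motif TTTCCCGC, the TATA box TATAAA and the p53 half-site, the last added after the windows had been read. The upstream Cdkn1a window held 2 p53 half-sites and no other of these motifs, the downstream one held 2 GC boxes, the Cdkn2c window held 3 GC boxes and that of its other start none of the motifs, with no overlap between matches. A p53 half-site was in 7.13% of 32851 promoter windows of this length, a GC box in 32.7%, an E-box in 6.02% and the STAT motif in 7.02%. The STAT motif was in none of the 9 windows found for 6 of the 10 genes, and the E-box was in the window of Mxd4 alone. A match describes the letters only.

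Cdkn2c encodes p18, an INK4 inhibitor that binds CDK4 and CDK6, and it had the smallest spread of the genes that moved. It read 919, 829.9 and 869.8 in KO+GH and 973, 1049 and 937 in WT+GH, against 1891.5, 1820.5 and 1737 in KO and 1507, 1703 and 1672 in WT (1416868_at, its only probe set). The groups with and without GH lay far apart, and KO stood outside WT on either side: below it with GH and above it without. Cdkn2c fell with GH by 1.04 ± 0.09 in KO, or 2.05-fold (adjusted p = 8.13e-07), and by 0.71 ± 0.09 in WT, or 1.63-fold (adjusted p = 5.28e-05).

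The other CIP/KIP genes passed in no comparison. Cdkn1b, which encodes p27, an inhibitor that keeps cells at rest, varied more between replicates than any other of the 10 genes. It read 1423, 1917 and 2019.8 in KO+GH and 1437, 1808 and 1682 in WT+GH, against 1896, 915 and 1901 in KO and 727, 1581 and 1658 in WT (1434045_at). KO 2 and WT 1 were far below the others, and the log2 fold change with GH was 0.24 with a 95% interval of -0.51 to 0.99 in KO and 0.39 with an interval of -0.36 to 1.14 in WT. Cdkn1c, which encodes p57, an imprinted inhibitor that is abundant in differentiating muscle, had log2 fold changes with GH of 0.03 (-0.23 to 0.28) in KO and 0.18 (-0.07 to 0.44) in WT. With arrays centred on their median those were -0.155 in KO and -0.000765 in WT, and without WT 3 the WT value was 0.35 and passed (adjusted p = 0.0318).

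Myc, the growth-promoting transcription factor and an early response gene, rose with GH in both genotypes. It read 507.5, 573 and 634 in KO+GH and 379, 489 and 445 in WT+GH, against 169.8, 154 and 191 in KO and 247, 205.5 and 217 in WT (1424942_a_at, its only probe set). The 4 groups did not overlap with each other, and their order was KO+GH, WT+GH, WT and KO from high to low. Myc rose by 1.60 ± 0.14 on the log2 scale in KO, or 3.03-fold (adjusted p = 1.39e-06), and by 0.89 ± 0.14 in WT, or 1.86-fold (adjusted p = 0.000431).

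Max and Mxd4 did not pass for GH. Max, the shared partner, had log2 fold changes with GH of -0.15 (95% interval -0.54 to 0.24) in KO and 0.25 (-0.15 to 0.64) in WT. Mxd4, a repressor that competes with MYC, read 859, 1006 and 844 in KO+GH and 1064, 1015 and 867.5 in WT+GH, against 1079, 1082 and 1106 in KO and 1123, 1173 and 1204 in WT (1434378_a_at). All 6 arrays with GH were below all 6 without, by small amounts, with log2 fold changes of -0.27 ± 0.10 in KO (adjusted p = 0.0571) and -0.25 ± 0.10 in WT (adjusted p = 0.0909). It passed with arrays centred on their median (-0.45 in KO and -0.43 in WT). In KO it also passed without KO+GH 2 (-0.35, adjusted p = 0.0392) and with the filter at the 60th percentile (adjusted p = 0.0472). Of its 3 other probe sets, 1434379_at, nearly as bright as the main one, gave -0.16 in KO and -0.048 in WT. The dimmer 1422574_at gave 0.29 in KO and 0.47 in WT, and 1422575_at gave -0.0094 in KO and 0.14 in WT, and none of these values passed.

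**Figure D2:**
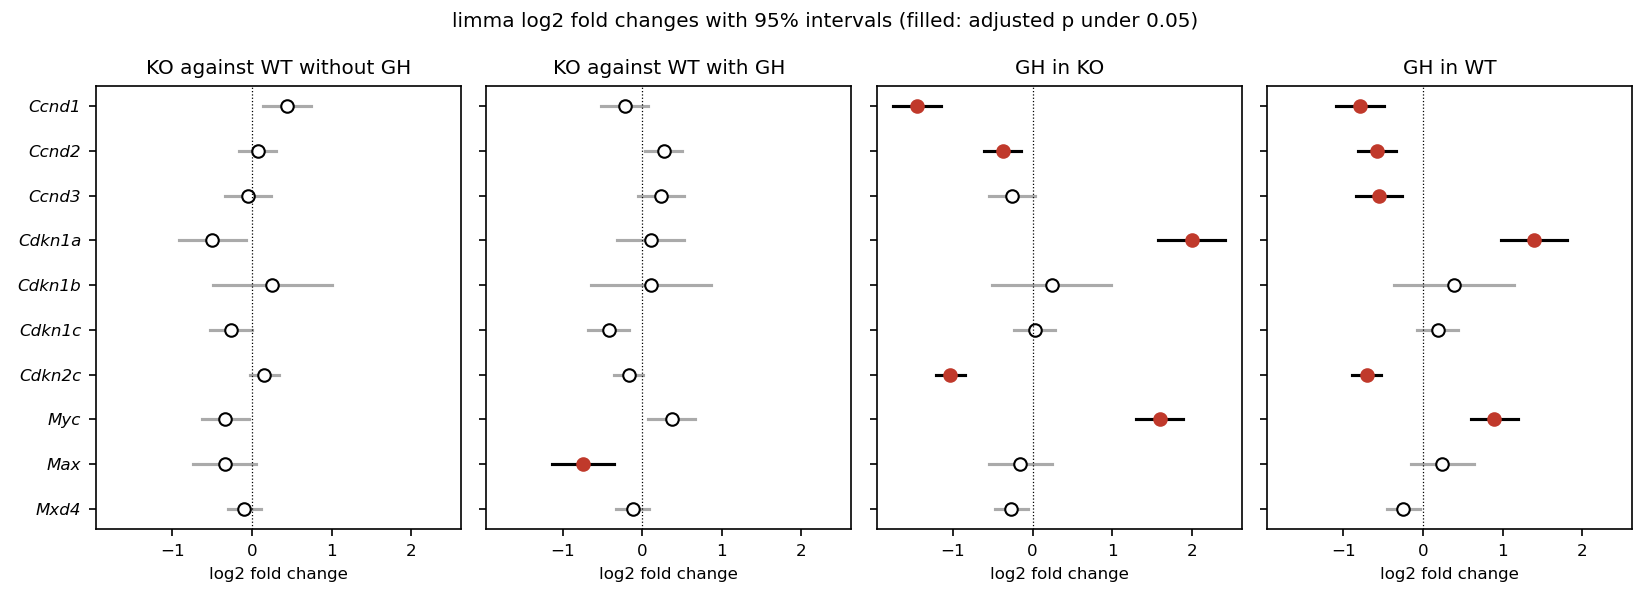
Log2 fold changes (horizontal axes) of the 10 genes in 4 comparisons from limma, with 95% intervals as lines and filled points for an adjusted p under 0.05. Filled points are 5 for GH in KO, 6 for GH in WT, 1 for KO against WT with GH (Max) and 0 for KO against WT without GH.

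**Figure D3:**
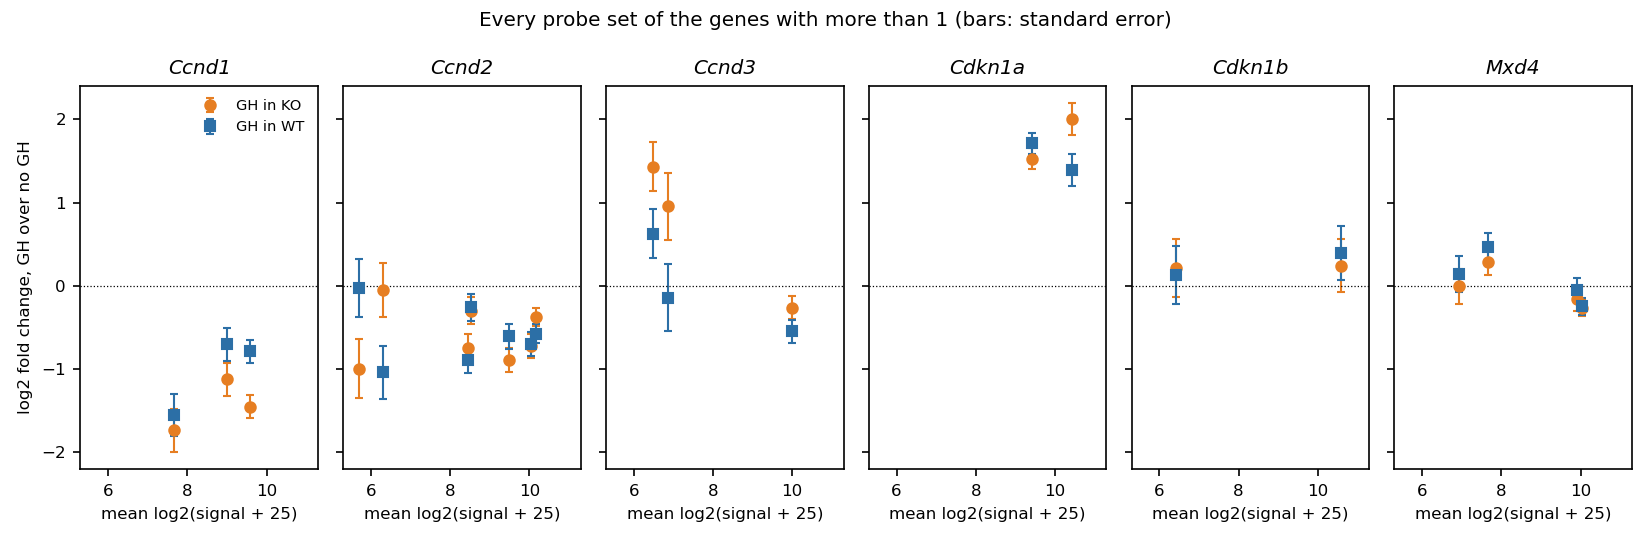
Log2 fold change with GH (vertical axis, bars for the standard error) of every probe set of the 6 genes with more than 1, against its mean log2(signal + 25) over the 12 arrays, in KO (circles) and WT (squares). All 3 probe sets of Ccnd1 lie below 0 and both of Cdkn1a above, while the dim probe sets of Ccnd3 lie apart from its bright one.

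The comparison of KO with WT asks whether loss of STAT5A and STAT5B alters these genes. With GH, Max was the only one of the 10 genes past the threshold, and it fell, where 2.11% of all genes fell and 2.42% rose. An unadjusted p under 0.05 was reached by 4 of the 10, as by 16.5% of all genes. Max read 271, 255 and 372 in KO+GH and 459, 629 and 461 in WT+GH (1423501_at, its only probe set). The groups did not overlap, and Max fell by 0.74 ± 0.18 on the log2 scale, or 1.67-fold (adjusted p = 0.0295). The call was lost without any 1 of KO+GH 1, KO+GH 2, WT+GH 1, WT+GH 2 and WT+GH 3 (adjusted p = 0.0524 to 0.144), with arrays centred on their median (0.0583) and without the trend and robust settings (0.066). The actin ratio was 0.962 to 1.01 in KO+GH and 0.887 to 0.932 in WT+GH, and 2 of 6 neutrophil markers tested fell in KO+GH. Of 6 satellite cell and myoblast markers 1 rose, Myod1 (1.05 ± 0.175, adjusted p = 0.00194), and of 6 endothelial markers 1 rose, the receptor gene Kdr (0.70 ± 0.13, adjusted p = 0.00325). The part of these measures in the Max result was not tested.

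Cdkn1c was the next gene in order of p with GH. It read 1461, 1627 and 1489 in KO+GH and 2219, 1823 and 2125 in WT+GH, with no overlap. Its log2 fold change was -0.42 ± 0.12 (adjusted p = 0.0642), and the adjusted p was 0.00561 in a fit to the 6 arrays with GH alone. Without WT 1 and KO 3 together, Cdkn1c passed as well (adjusted p = 0.0336), and all 12 calls among the 10 genes and the comparisons held. In all, 2 of the 10 genes were higher in KO+GH with no overlap (Ccnd2 and Myc) and 3 lower (Cdkn1c, Cdkn2c and Max), as were 13.8% and 16.3% of all genes.

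Without GH, 0 of the 10 genes passed limma's threshold, where 0.775% of all genes rose and 0.68% fell, and 4 had an unadjusted p under 0.05 (Ccnd1, Cdkn1a, Cdkn1c and Myc), as did 11.7% of all genes. The log2 value of Ccnd1 was higher in KO by 0.44 ± 0.14 (adjusted p = 0.173), and by 0.25 and 0.33 with its other probe sets. Myc had -0.34 ± 0.14 (adjusted p = 0.343), Cdkn1c -0.26 ± 0.12 (adjusted p = 0.416) and Cdkn1a -0.50 ± 0.20 (adjusted p = 0.326). For Cdkn1a the value was -0.76 without KO 1 (adjusted p = 0.0195), -0.21 without KO 3 (adjusted p = 0.666) and -0.10 by the other probe set. Ccnd1 was 0.27 without WT 1 (adjusted p = 0.3605) and Cdkn1c -0.098 without WT 3 (adjusted p = 0.777). KO arrays were above WT arrays with no overlap for Ccnd1 and Cdkn2c and below for Cdkn1c, Myc and Mxd4, where 6.2% and 7.04% of all genes were. Slow fibre markers were higher in KO on the same arrays: 5 of 7 rose, with a summed signal of 34767 to 42895 in KO and 10599 to 29896 in WT, and their part in these values was not tested.

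The interaction asks whether the GH difference depends on genotype. It passed limma's threshold for 0 of the 10 genes, where 0.625% of all genes passed above 0 and 0.308% below, and 4 had an unadjusted p under 0.05, as did 10.4% of all genes. Myc had the lowest p: its GH difference was 0.705 ± 0.20 larger in KO than in WT on the log2 scale (95% interval 0.29 to 1.12, adjusted p = 0.143). That of Ccnd1 was -0.66 ± 0.20 (interval -1.08 to -0.24, adjusted p = 0.1885), that of Cdkn2c -0.33 ± 0.12 (adjusted p = 0.3225) and that of Cdkn1a 0.60 ± 0.28 (adjusted p = 0.468). In these 4 genes the point estimate of the GH difference was larger in KO than in WT with the main probe set. The second probe set of Cdkn1a gave -0.18 ± 0.18, the opposite direction, and the others of Ccnd1 gave -0.18 and -0.42. The other 6 genes had interaction values from -0.40 to 0.29. The GH comparisons in KO and in WT share no arrays but share the estimate of the spread. Each genotype comparison shares arrays with both of them.

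For the 3 genes with the widest range of group means, the genes with the most similar profile over the 12 arrays were found by the root mean square difference of centred log2 values. For Cdkn1a these were Glul (0.21), which encodes glutamine synthetase, Sphk1 (0.26), a sphingosine kinase gene, and Noct (0.28), a gene with a daily rhythm. For Myc they were Ampd3 (0.17), which encodes an AMP deaminase, Sbno2 (0.19) and Map2k3os (0.19). For Ccnd1 they were Kcnj11 (0.17), a subunit of the ATP-sensitive potassium channel, Gng11 (0.17), a G protein subunit gene, and Cd74 (0.18), the invariant chain of antigen presentation. The distance is a description over arrays whose control signals also differ with GH.

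Of 25 other regulators of the G1 and S phases 22 were tested, and with GH 1 rose and 6 fell in each genotype, with medians of -0.18 in both. Over all genes 8.93% rose and 15.4% fell with GH in KO, and 7.33% rose and 11.8% fell in WT. The same shares stand beside the GH counts of the lists that follow. Tfdp2, a partner of E2F factors, rose by 0.56 ± 0.10 in KO and 0.64 ± 0.10 in WT. Among those that fell in both were Cdk7, the kinase that activates other CDKs (-0.93 ± 0.15 in KO and -0.61 ± 0.15 in WT), E2f4, a repressive E2F (-0.71 ± 0.13 in KO and -0.79 ± 0.13 in WT), E2f6, a repressor (-0.45 ± 0.08 in KO and -0.30 ± 0.08 in WT), and the phosphatase gene Cdc25a (-0.73 ± 0.13 in KO and -0.45 ± 0.13 in WT). Cdkn2b, another INK4 gene, fell in WT by 0.80 ± 0.19 (adjusted p = 0.00811) and had -0.20 in KO (adjusted p = 0.469). The cyclin D partner Cdk4 fell in KO by 0.43 ± 0.11 (adjusted p = 0.0111) and had -0.23 in WT (adjusted p = 0.173). The interaction of genotype and GH passed for 0 of the 22. In the comparisons of KO with WT 0 of the 22 passed limma's threshold, and 4 with GH and 0 without had an unadjusted p under 0.05. Of all genes 16.5% with GH and 11.7% without reached that unadjusted p.

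In the wider MYC network 3 of 11 genes tested rose and 0 fell with GH in KO, and 2 rose and 1 fell in WT. Mnt, a MAX-binding repressor, rose by 0.40 ± 0.12 in KO and 0.44 ± 0.12 in WT, and Mga, another MAX partner, by 0.61 ± 0.20 in KO and 0.83 ± 0.20 in WT. Trrap, a cofactor of MYC, rose by 0.37 ± 0.10 in KO and had 0.016 in WT (adjusted p = 0.927). Zbtb17, which encodes the MYC-binding factor MIZ-1, fell by 0.59 ± 0.14 in WT and had -0.11 in KO (adjusted p = 0.618). The interaction of genotype and GH passed for 0 of these 11 genes. Of 25 MYC target genes of ribosome and nucleotide synthesis 3 rose and 3 fell with GH in KO (median 0.09) and 1 rose and 4 fell in WT (median -0.04), so that calls went both ways. The spermidine synthase gene Srm rose in both genotypes (0.35 ± 0.10 in KO and 0.34 ± 0.10 in WT), while the cap-binding factor gene Eif4e fell (-0.30 ± 0.10 in KO and -0.39 ± 0.10 in WT). Odc1, the ornithine decarboxylase gene of polyamine synthesis, fell in KO against WT without GH (log2 fold change -1.004 ± 0.15, adjusted p = 0.00217), the only call of this list in the comparisons of genotype.

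Proliferation markers were mostly dim. Their median percentile was 38 among all genes, Bub1 and Aurkb had mean signals under 25, and 12 of the 19 on the array were bright enough to test. With GH 1 fell and 0 rose in each genotype, namely Pcna, the sliding clamp of DNA replication (-0.24 ± 0.07 in KO and -0.29 ± 0.07 in WT). The proliferation marker Mki67 was too dim to test, at 37.3 to 54.7 in KO+GH and 8.5 to 41.7 in WT+GH, and at 55.2 to 109.6 in KO and 33.9 to 60.1 in WT. For KO against WT 0 of the 12 passed limma's threshold, and 2 with GH and 0 without had an unadjusted p under 0.05. The shares of all genes with such a p were 16.5% with GH and 11.7% without.

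Of 14 p53 target genes other than Cdkn1a 2 rose and 4 fell with GH in KO, and 4 rose and 4 fell in WT. Tigar, a regulator of sugar metabolism, fell by 1.78 ± 0.10 in KO and 1.45 ± 0.10 in WT. Phlda3, an inhibitor of AKT, also fell, with log2 fold changes of -0.79 ± 0.10 in KO and -1.002 ± 0.10 in WT. Trp53inp1, a stress response gene, rose by 0.74 ± 0.11 in KO and 1.25 ± 0.11 in WT. Sesn1 rose in WT by 0.92 ± 0.12 and had 0.25 in KO (adjusted p = 0.137), and its interaction did not pass (adjusted p = 0.0857). Mdm2, which encodes the ligase that degrades p53, fell in both genotypes (-0.38 ± 0.09 in KO and -0.44 ± 0.09 in WT). Ccng1 rose in both (0.33 ± 0.07 in KO and 0.25 ± 0.07 in WT). For KO+GH against WT+GH Trp53inp1 and Tigar fell, by 0.61 ± 0.11 and 0.40 ± 0.10, where 2.11% of all genes fell.

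**Figure D4:**
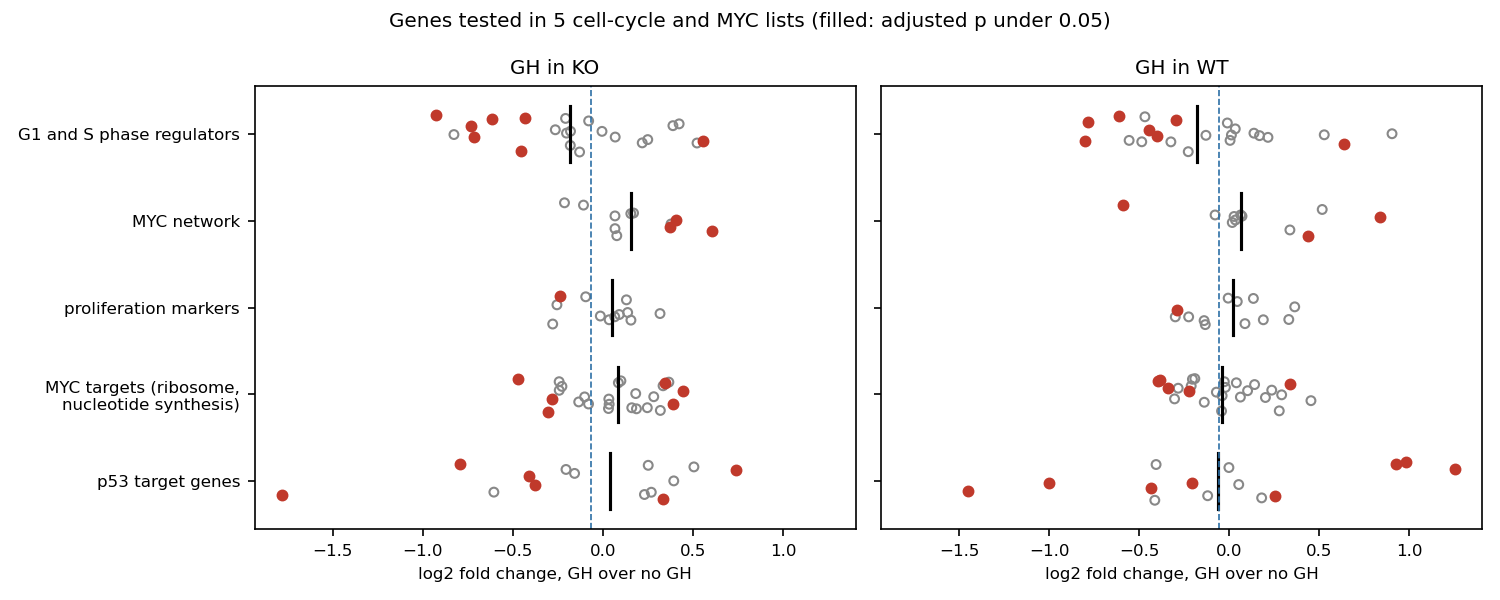
Log2 fold changes with GH (horizontal axes) of the genes tested in 5 lists, in KO (left) and WT (right), with filled points for an adjusted p under 0.05, black bars for list medians and a dashed line for the median of all genes. Points lie on both sides of 0 in every list, and in the list of regulators of the G1 and S phases 6 of the 7 filled points are below 0 in each genotype. Among the calls over all genes, 36.7% in KO and 38.4% in WT were above 0.

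Markers of other cell types moved with GH on the same arrays, and their part in the GH results was not tested. Macrophage markers fell, 5 of 6 in KO and 3 of 6 in WT, with a summed signal of 6414 to 6467 in KO+GH and 6332 to 6549 in WT+GH, against 8330.4 to 11822 in KO and 8745 to 14862 in WT. Cd163 of this list was higher with GH (0.30 in KO and 0.25 in WT) and did not pass. Of the endothelial markers 3 of 6 fell in each genotype, with sums of 4083 to 4621 in KO+GH and 3685 to 3943 in WT+GH, against 4765 to 5433 in KO and 4731 to 5467 in WT. The list was mixed: 3 of the 6 had a log2 fold change above 0 in KO (up to 0.41) and 1 in WT (0.22), and 0 of them passed. Fibroblast markers fell, 2 of 6 in KO and 3 of 6 in WT, with sums of 53244 to 54304.5 in KO+GH and 51534 to 61781 in WT+GH, against 64233 to 69954 in KO and 65588 to 70717 in WT. Neutrophil markers rose, 3 of the 6 tested in each genotype, with sums over 8 genes of 1571 to 1803 in KO+GH and 2907 to 3026 in WT+GH, against 334 to 409 in KO and 425.5 to 603 in WT. Of the adipocyte markers 3 of 4 fell in each genotype, with sums of 11551 to 11849 in KO+GH and 10005 to 12699.9 in WT+GH, against 16881 to 29163 in KO and 17843 to 20933 in WT. Lep went the other way and did not pass, with log2 fold changes of 0.56 in KO and 0.465 in WT. Its mean signal was 261 in KO+GH and 251 in WT+GH, against 180 in KO and 176 in WT. Smooth muscle markers rose, 3 of 4 in KO and 1 of 4 in WT. Among 6 satellite cell and myoblast markers 1 rose and 0 fell with GH in KO and 1 rose and 1 fell in WT. Myod1, the myoblast determination factor, was at 2330.2, 2241.5 and 2326 in KO+GH and 1110.0, 1034 and 1149 in WT+GH, against 1599, 1617 and 1515 in KO and 3089, 1665 and 1612 in WT. It rose with GH in KO (0.54 ± 0.175, adjusted p = 0.0374) and fell in WT (-0.87 ± 0.175, adjusted p = 0.00324). Its interaction of genotype and GH passed (1.41 ± 0.25, adjusted p = 0.00959), the only 1 of the 6 to do so. Of the skeletal muscle fibre markers 7 of 9 fell in KO and 0 of 9 in WT by limma. An unadjusted p under 0.05 was reached by 8 of these markers in KO (36.6% of all genes) and by 3 in WT (32.6%). Their sums were 369050 to 388689 in KO+GH and 376050 to 528523 in WT+GH, against 447149 to 580519 in KO and 502187 to 511204.5 in WT. Slow fibre markers rose in WT, 5 of 7, with sums of 25575 to 26396 in WT+GH, which lay within the 10599 to 29896 of WT. In KO 0 of 7 passed, with sums of 32822 to 33555 in KO+GH and 34767 to 42895 in KO. None of the markers in these lists had a mean signal under 25.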

How the data were processed

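Total RNA of 12 mice was hybridized to 12 one-colour Affymetrix arrays. The authors deposited linear MAS5 intensity values for 45101 probe sets; per the submitters' processing notes MAS5 was the tool, and its settings are not given in the sources used here. The trimmed mean without the lowest and highest 2% was 500 on every array. No detection calls were used. The number of arrays limits the precision.

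Values were taken as log2(signal + 25). Control probe sets (64), those with several symbols (932) and those with none (9160) were left out. Each gene was its probe set with the highest mean, and the 12648 genes whose mean exceeded a log2 value of 6.255, the 40th percentile over probe sets, entered the test. limma 3.58.1 in R 4.3.3 fitted 1 mean per group over all 12 arrays with 8 residual degrees of freedom, and eBayes used a mean trend and robust hyperparameters (statmod 1.5.0). P-values are 2-sided and Benjamini-Hochberg adjusted over the 12648 genes, and 0.05 was the threshold. Single probe sets were fitted over all 34945 with 1 gene. "Rose" and "fell" mean past the threshold. Behind ± stands the SD of a signal or the standard error of a fold change on the log2 scale. Animals carry their own numbers in the labels, so p-values measure the spread between these animals, and replicates are numbered in accession order. The 10 genes and all lists were chosen with earlier results of these data known. Named genes were these 10, Stat5a and Stat5b, at most 4 members of a list past the threshold in a comparison, and the nearest 3 genes by distance; Mki67, Mdm2, Cdk4, Myod1 and Kdr were chosen after their values were seen. The fit was tested on simulated data. Alternatives were another pseudocount (64), no filter or the 60th percentile, quantile normalization, centring, the mean of all probe sets, the compared groups alone, eBayes without trend, and leaving out arrays.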

Additional observations from a re-analysis of the deposited data

How the results depend on the processing

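Of the 12 calls among the 10 genes, 9 held under every setting tried: Ccnd1, Cdkn1a, Cdkn2c and Myc with GH in both genotypes and Ccnd2 with GH in WT. The exceptions were Max, Ccnd3 in WT and Ccnd2 in KO, and all 168 values of the 12, which leave aside the added settings named below, kept their direction. The number of genes past the threshold, 1 of 10 for KO+GH against WT+GH, was 0 with each array centred on its median and without trend and robust settings, 2 with only the arrays of these groups, 0 to 1 without any 1 array and 2 without WT 1 and KO 3 together. For KO against WT without GH it was 0, and 0 to 1 without any 1 array. The removal of WT 1 and KO 3 and the centring on the genes kept were chosen after seeing the data. The causes of these changes were not tested.

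None of the values that changed sign had passed the threshold in the fit as reported. With the mean of all probe sets Mxd4 was 0.041 for KO against WT without GH and 0.079 for GH in WT, Cdkn1a was -0.087 for KO+GH against WT+GH, and Ccnd3 was 0.71 for GH in KO, the one past the threshold. With each array centred on its median Cdkn1c was -0.000765 for GH in WT and -0.155 for GH in KO. Without WT 1 and KO 3 Ccnd2 was -0.018 and Cdkn1b -0.29 for KO against WT without GH, and the interaction was 0.40 for Cdkn1b and 0.017 for Mxd4. Without any 1 array, KO against WT without GH ranged from -0.002049 to 0.19 for Ccnd2, -0.13 to 0.11 for Ccnd3 and -0.12 to 0.60 for Cdkn1b. GH in KO ranged from -0.10 to 0.41 for Cdkn1b and -0.021 to 0.060 for Cdkn1c, and the interaction from -0.49 to 0.23 for Cdkn1b and -0.11 to 0.038 for Mxd4.

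Counts over all genes moved by more than 1.5 times in some fits. For KO against WT without GH, 184 became 39 with only those groups, 111 without trend, 277 without WT 1 and KO 3, and 122 without KO 2. For KO+GH against WT+GH, 573 became 1300 with only those groups, 1028 without WT 1 and KO 3, and 353 to 367 without 1 of the KO+GH arrays. Centring on the array median gave 4430 against 2416 for GH in WT and 4837 against 3079 for GH in KO. The interaction had 118 genes, but 77 without trend, 76 without KO+GH 1 and 207 without WT 1 and KO 3. No paired analysis was possible because each animal has its own number in the labels.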
